A study of Homo sapiens with 96 samples.

Results

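The 52 genes described here encode the kinetochore, the spindle assembly checkpoint and the regulators that carry a cell through mitosis, chosen by symbol from the 44659 gene entries of a raw count table. They fell into 6 role groups: 6 checkpoint genes, 10 genes of the outer kinetochore, 14 centromere (CENP) genes, 8 genes of mitotic kinases, their passenger partners and shugoshins, 7 genes of cyclins and anaphase, and 7 genes of the spindle and cytokinesis. Of these 52 members, 48 had enough counts to be tested. The other 4 (SPC25, CENPN, CENPP and ESPL1) were close to 0 in nearly all libraries and are described at the end.

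The samples were 96 libraries of A375, an established human melanoma cell line, in 32 groups of 3. Cells were kept for 18 h in DMSO or in MAPKi, a mixture of the BRAF inhibitor vemurafenib (500 nM) and the MEK inhibitor cobimetinib (500 nM). Each pretreatment was then divided into 4 arms: vehicle (DMSO), cycloheximide at 100 µg/ml (CHX), which stops translation elongation, triptolide at 25 µM (spelled tryptolide in the labels; T), which stops transcription by RNA polymerase II, and both drugs with cycloheximide given 5 min before triptolide (TCHX). Cells of each arm were harvested at 0, 1, 3 and 5 h, each time from its own batch of cells prepared in the same way, so that time and batch cannot be told apart. Cytoplasmic RNA (500 ng) was sequenced as 3′ tags by QuantSeq, with no molecular identifiers, so that a library counts reads from cytoplasmic transcripts and not from nuclear precursors. Every group rests on the same single cell line.

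Kinetochores are protein assemblies that join centromeric chromatin, marked by the histone variant CENPA, to spindle microtubules. The inner CENP proteins bind the centromere, the MIS12 complex, KNL1 and the NDC80 complex form the microtubule-binding layer, and checkpoint proteins such as BUB1, MAD2L1 and TTK gather on unattached kinetochores and hold back the anaphase-promoting complex and its activator CDC20. CDK1 with cyclins A and B, the Aurora and Polo kinases, and the chromosomal passenger proteins drive entry into and passage through mitosis, and many of these genes are transcribed mainly in late S, G2 and M phase. In bulk RNA, fewer cycling cells and less RNA per cycling cell cannot be told apart, and this holds for every level given here.

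Total counts per library ranged from 2381351 to 12520154, and the members took 0.450 to 0.727% of them. Within groups, the correlation of log2 CPM between libraries was 0.953 to 0.988. The sources used here do not say whether the 3 libraries of a group came from separate cultures, so the p-values measure the spread between libraries, which may be technical. The MAPKi labels were checked on 6 targets of the pathway (DUSP6, SPRY2, SPRY4, ETV4, ETV5 and PHLDA1), whose summed level was 1002 to 1380 CPM (counts relative to library size, scaled by TMM, the trimmed mean of M-values) in the 12 DMSO vehicle libraries and 68.9 to 163 CPM in the 12 MAPKi vehicle libraries. Of 8 melanocyte lineage markers, SOX10, MITF, S100B and DCT were present in every vehicle library, while MLANA and TYR averaged under 1 CPM under both pretreatments and TYRP1 under 1 CPM in DMSO. The summed melanocyte list was 623 to 1002 CPM in DMSO and 2104 to 3711 CPM in MAPKi. DCT alone had a median of 47.1 CPM in DMSO and 2061 CPM in MAPKi, and PMEL one of 1.22 and 14.5 CPM. Of the 7 markers tested, 6 were higher in MAPKi. S100B was lower, with a median of 303 CPM in DMSO and 223 CPM in MAPKi. The part of these markers in the results on the members was not tested. Summed lists of 4 markers each did not exceed 3.12 CPM for keratinocytes, 8.25 CPM for fibroblasts and 2.00 CPM for leukocytes.

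The first comparison asked how the MAPKi pretreatment set the level of the mitotic transcripts in cells that received no further drug. Of the 48 members tested, 46 were lower in MAPKi than in DMSO, PMF1 was higher and CENPC did not pass the test (edgeR quasi-likelihood test over all 96 libraries, Benjamini-Hochberg adjusted p under 0.05, mean of the 4 time points). Over all 14938 genes tested, 33.0% were lower and 36.0% higher in the same comparison, and the median log2 difference was 0.06, against -0.61 for the members. In 27 of the 48 members all 12 MAPKi libraries lay below all 12 DMSO libraries, a separation shown by 13.1% of all genes tested.

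Cyclins and anaphase genes were among the members with the widest gaps. CCNB1, the cyclin that activates CDK1 at mitotic entry (chr5:69167135-69178245 in GRCh38, plus strand), had 206.7, 197.2 and 214.2 CPM in the DMSO vehicle libraries at 0 h and 118.5, 102.1 and 117.5 CPM in the MAPKi libraries. Over the 12 libraries of each pretreatment it ranged from 197 to 259 CPM (median 216) in DMSO and from 91.7 to 122 CPM (median 107) in MAPKi. No MAPKi library reached the lowest DMSO library, and the log2 difference was -1.03 ± 0.05 (SE, adjusted p = 1.25e-29 by edgeR). CDK1, the kinase itself, ranged from 133 to 180 CPM (median 156) in DMSO and from 65.9 to 84.5 CPM (median 81.0) in MAPKi, a log2 difference of -0.97 ± 0.05. CDC20, the activator of the anaphase-promoting complex, was at 262 to 393 CPM (median 296) in DMSO and 131 to 224 CPM (median 169) in MAPKi. For CCNA2, which acts from S phase to prometaphase, and for PTTG1, which encodes securin, the log2 differences were -0.89 ± 0.05 and -0.75 ± 0.05. All 6 tested genes of this group were lower in MAPKi, with CCNB2 the least changed (-0.32 ± 0.06).

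Among the 12 tested centromere genes, 11 were lower. CENPO, a subunit of the constitutive centromere complex, had the lowest log2 difference of all members at -1.34 ± 0.08, with 22.7 to 40.1 CPM (median 32.1) in DMSO, and with a lowest value of 9.54 CPM and a median of 12.1 CPM in MAPKi. CENPK, another subunit of that complex, followed at -1.32 ± 0.07. The range of CENPO in MAPKi ended below its range in DMSO, but exons of CENPO overlap ADCY3 and PTRHD1 on the other strand, and as the strand setting of the counting is not given in the sources used here, reads of such pairs cannot be told apart. CENPA fell by 0.81 ± 0.20, the widest error among the members, with 9.71 to 31.1 CPM in DMSO and 4.47 to 13.9 CPM in MAPKi. CENPE, a kinesin that moves chromosomes to the spindle equator, fell by 0.54 ± 0.05. CENPF, a large coiled-coil kinetochore protein, had the smallest of the called differences (-0.16 ± 0.05), and its libraries overlapped, at 846 to 1184 CPM in DMSO and 718 to 1042 CPM in MAPKi. CENPC, which links CENPA chromatin to the outer kinetochore (chr4:67468762-67545503, minus strand), was at 28.0 to 41.4 CPM (median 32.5) in DMSO and 27.2 to 39.2 CPM (median 33.5) in MAPKi. The ranges of CENPC nearly coincided, and its log2 difference was 0.04 ± 0.07 (adjusted p = 0.66 by edgeR).

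All 6 checkpoint genes were lower in MAPKi. MAD2L1, which encodes the MAD2 inhibitor of CDC20, fell by 1.17 ± 0.08, from a median of 61.8 CPM to a median of 26.6 CPM. BUB1 and TTK, the checkpoint kinases, fell by 0.79 ± 0.06 and 0.55 ± 0.07. All 8 kinase and passenger genes were lower as well, with AURKB, the catalytic subunit of the chromosomal passenger complex, at -1.01 ± 0.06, PLK1 at -0.85 ± 0.06 and AURKA, which acts at spindle poles, at -0.71 ± 0.05. INCENP, the scaffold of the passenger complex, showed the smallest difference of that group at -0.17 ± 0.05. At single times INCENP was at 0.09 at 0 h, 0.12 at 1 h and -0.15 at 3 h, not called at any of these. It was called lower only at 5 h, at -0.73. The outer kinetochore was the only role group with a member above 0 that passed the test: PMF1, a subunit of the MIS12 complex, rose by 0.25 ± 0.08, while NDC80 and KNL1 fell by 0.62 ± 0.06 and 0.44 ± 0.05. PMF1 shares exons with the readthrough gene PMF1-BGLAP, which was listed with no count, and its difference was -0.16 at 5 h alone. FAM83D, which brings casein kinase to the spindle, fell by 0.89 ± 0.12, and all 7 spindle and cytokinesis genes were lower.

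**Figure D1:**
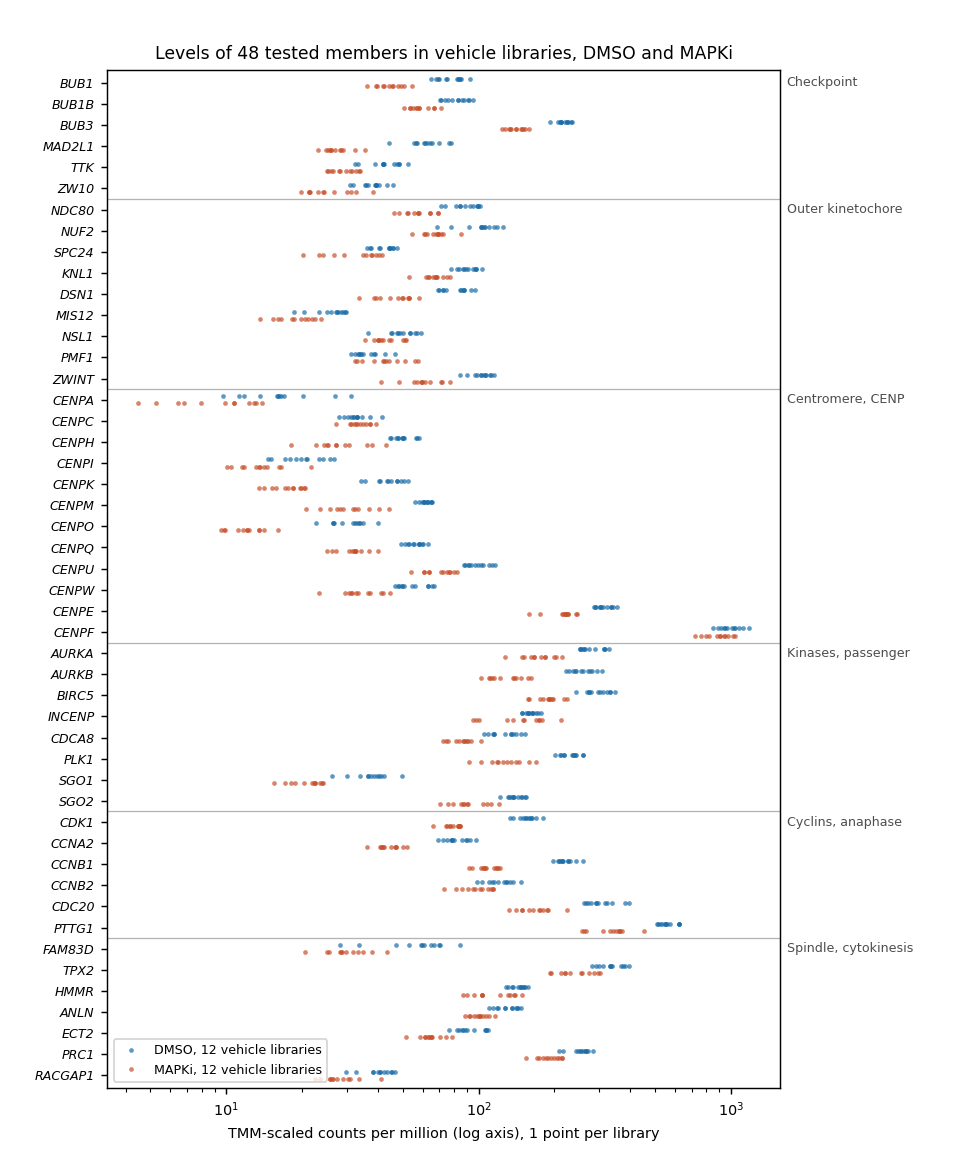
Level of each of the 48 tested members in vehicle libraries, in TMM-scaled CPM on a log axis, with 1 point for each of 12 DMSO (blue) and 12 MAPKi (orange) libraries, ordered by role group. The orange points lie left of the blue ones without overlap in 27 members, among them CCNB1 and CDK1, and the colours coincide for CENPC.

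The member median was lower at 3 and 5 h than at 0 and 1 h. At 0 h, 37 of the 48 members were lower (23.6% of all genes; 22.3% were higher), with a median log2 difference of -0.52. At 1 h, 34 were lower and PMF1 was higher (24.1% and 23.2% of all genes), with a median of -0.45. At 3 h, 44 were lower (23.3%; higher 22.3%), with a median of -0.76, and at 5 h, 42 were lower (23.5%; higher 22.4%), with a median of -0.83. The median over all genes stayed between 0.01 and 0.06. CCNB1 was at -0.87 at 0 h and at -1.14 at 5 h, and CENPF was at 0.05 at 0 h and at -0.43 at 5 h. Whether the gap itself differed between time points was not tested.

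Other mitotic genes from lists that hold no member were also mostly lower in MAPKi. Over all genes 33.0% were lower and 36.0% higher in this comparison. Of 28 further kinetochore and spindle genes tested, 25 were lower and 1 higher, led by SKA3 (-1.50 ± 0.10), a kinetochore protein that couples to microtubules. Of 20 cohesin and condensin genes, 16 were lower and 3 higher, with CDCA5, which encodes sororin, at -1.53 ± 0.10. Of 14 genes that control CDK1, 10 were lower, and CDC25A, a phosphatase that activates cyclin-dependent kinases, fell by 2.73 ± 0.09. Of 18 genes of the anaphase-promoting complex and its partners, 10 were lower and 2 higher, with the ubiquitin-conjugating enzyme UBE2S at -1.34 ± 0.08. Of 12 regulators of cell cycle transcription, 8 were lower and 3 higher, and CDKN1A, which encodes the kinase inhibitor p21, rose by 1.22 ± 0.07.

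Promoters of the members shared short letter strings that the choice of genes did not use. Many late cell cycle promoters hold the cell cycle homology region (CHR), TTTGAA, close to the start site, with CCAAT boxes, bound by NF-Y, upstream of it. RefSeq promoters (GRCh38.p14; 250 bases before to 50 after the start) were found for 42 of the 52 members, as 51 windows of 300 bases, and were searched on both strands for the CHR letters TTTGAA. The same search was made for the variant TTCGAA. The letters CCAAT were searched as the other element. TTTGAA was in 51.0% of the member windows (26 of 51), in 15.2% of all 35116 promoters of that length and in 11.2% of the 15989 promoters of tested genes. CCAAT was in 76.5% of the member windows, against 34.6% of all and 35.0% of tested genes, and both strings were together in 39.2% against 5.90% and 4.43%. TTCGAA was in 7.84% (BUB1, NDC80, CENPW and SGO1), against 1.45% and 1.61%. Such a match is a description of letters and not of a bound site. The windows below run from 100 bases before to 30 after the start, read 5′ to 3′ on the strand of the gene, with all matches of these strings on either strand in capitals, and were chosen to show the arrangement in members that were lower in MAPKi and, last, in CENPC, which was not called.
PLK1, chr16:23678789-23678918, plus strand: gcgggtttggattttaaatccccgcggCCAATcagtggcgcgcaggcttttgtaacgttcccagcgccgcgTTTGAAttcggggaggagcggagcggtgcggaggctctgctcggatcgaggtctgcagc
CCNB2, chr15:59105046-59105175, plus strand: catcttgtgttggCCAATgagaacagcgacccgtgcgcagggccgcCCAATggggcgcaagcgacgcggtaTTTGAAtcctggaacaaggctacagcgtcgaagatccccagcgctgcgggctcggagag
CCNB1, chr5:69167050-69167179, plus strand: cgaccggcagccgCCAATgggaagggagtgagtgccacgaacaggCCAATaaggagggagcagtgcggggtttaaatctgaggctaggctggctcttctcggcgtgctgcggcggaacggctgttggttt
CDC20, chr1:43358881-43359010, plus strand: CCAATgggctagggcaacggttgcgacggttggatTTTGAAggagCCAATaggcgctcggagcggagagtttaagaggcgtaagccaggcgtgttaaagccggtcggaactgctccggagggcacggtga
CENPA, chr2:26785956-26786085, plus strand: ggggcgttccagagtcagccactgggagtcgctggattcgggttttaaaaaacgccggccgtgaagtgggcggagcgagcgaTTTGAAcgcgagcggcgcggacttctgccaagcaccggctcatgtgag
BUB1, chr2:110678034-110678163, minus strand: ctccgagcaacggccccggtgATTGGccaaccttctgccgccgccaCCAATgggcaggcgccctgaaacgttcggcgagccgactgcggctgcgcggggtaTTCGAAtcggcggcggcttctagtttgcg
SGO1, chr3:20186177-20186306, minus strand: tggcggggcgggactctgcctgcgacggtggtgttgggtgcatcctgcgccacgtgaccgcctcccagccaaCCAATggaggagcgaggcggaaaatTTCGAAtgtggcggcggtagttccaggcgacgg
CENPC, chr4:67545474-67545603, minus strand: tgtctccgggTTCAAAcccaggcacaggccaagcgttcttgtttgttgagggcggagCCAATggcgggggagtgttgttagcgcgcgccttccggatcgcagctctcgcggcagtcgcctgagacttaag

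In the PLK1 window TTTGAA began 29 bases before the start and CCAAT 73 bases before it, and in CCNB2 TTTGAA was also at -29, with CCAAT at -54 and -87. CCNB1 held CCAAT at -55 and -87 and no TTTGAA, and BUB1 and SGO1 held TTCGAA at 1 and -3. CENPA held TTTGAA at -18, with CCAAT only upstream of the printed window. CDC20 held TTTGAA at -65 between CCAAT matches at -55 and -100. CENPC, whose level did not pass the test, held TTTGAA on the other strand at -90, farther from the start, and CCAAT at -43. A link between these letters and the levels was not tested. DSN1, NSL1, CENPI and CENPE, all lower in MAPKi, had no match in their 300 bases. PMF1, which was higher, held CCAAT at -83, -54 and 28. No match in a window says only that these letters are not in it.

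**Figure D2:**
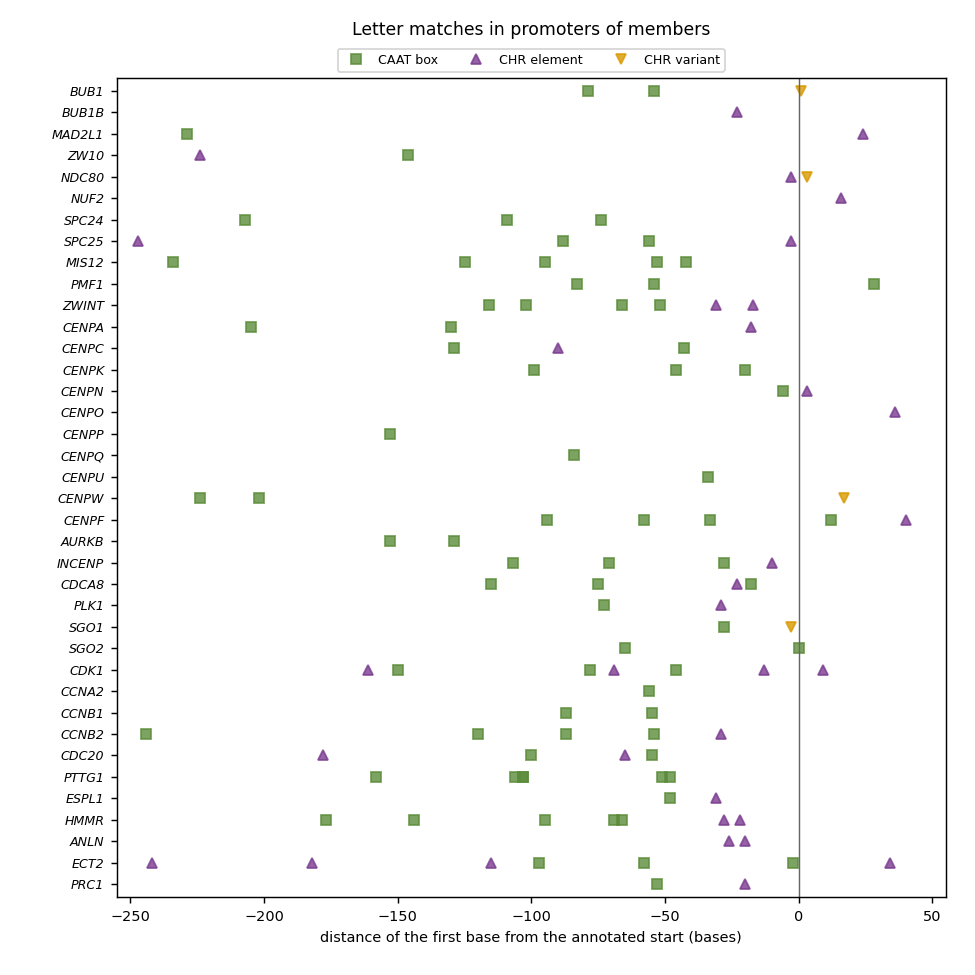
Position of CHR elements (triangles), their variant (inverted triangles) and CAAT boxes (squares) in the promoters of members with at least 1 match, as distance in bases from the annotated start; matches of all promoters of a gene share its row. In PLK1 and CCNB2 a CHR element lies at -29 with CAAT boxes upstream of it, and in CENPC the CHR element lies at -90.

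Vehicle libraries at 5 h were compared with those at 0 h, to see what the members did without CHX or triptolide. In DMSO, 0 of 48 members passed the edgeR test (0.589% of all genes were higher and 0.482% lower). At an unadjusted p under 0.05, 6 members were higher and 4 lower (NUF2, CENPK, SGO2 and PRC1). Of all 14938 genes, 897 were higher and 904 lower at that threshold. DESeq2 called BIRC5. In MAPKi, 6 members were lower and none higher (2.14% and 1.26% of all genes): INCENP, SPC24, HMMR, PTTG1, SGO2 and CENPF. INCENP had 149.5, 169.3 and 173.2 CPM at 0 h and 95.4, 100.2 and 97.9 CPM at 5 h, so that the 2 sets of libraries lay apart, with a log2 difference of -0.74 ± 0.10 (adjusted p = 6.27e-08 by edgeR). In DMSO the same gene had 154 ± 4.42 CPM at 0 h and 162 ± 7.37 CPM at 5 h (SD, n = 3). SPC24, a subunit of the NDC80 complex, fell by 0.68 ± 0.13. HMMR, a spindle-assembly factor, fell by 0.49 ± 0.09, PTTG1 by 0.42 ± 0.09, the cohesin protector SGO2 by 0.41 ± 0.09 and CENPF by 0.37 ± 0.09. CENPK and ANLN had the smallest values in MAPKi (-0.01 and -0.02), and CENPM and CENPQ in DMSO (-0.0010 and 0.0027). Without replicate 1 in every group only INCENP and SPC24 were called, and without replicate 3 only INCENP and HMMR, 2 calls each.

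Triptolide was used to follow how fast existing transcripts were lost. Levels in the T and TCHX arms were scaled on 36 genes whose share of the counts rose under triptolide, none of them a member, and the loss of a transcript is the mean of 3 and 5 h against 0 h of the same arm. These scaled values depend on that choice: over all genes the log2 change had a median of -0.44 in DMSO and -0.60 in MAPKi with it, and -0.01 and 0.04 with TMM, so that losses are best read against these medians. In DMSO, 39 of 48 members fell (45.6% of all genes; 1.26% were higher), with a member median of -0.47. In MAPKi, 34 fell and BIRC5 rose (55.6% and 1.35% of all genes), with a member median of -0.51. With TMM the member calls were 4 higher (BIRC5, CENPH, PTTG1 and ZWINT) and 16 lower in DMSO, where 11.5% of all genes were higher and 20.7% lower. In MAPKi they were 20 higher and 7 lower with TMM, against 19.1% and 21.1% of all genes. At 5 h of triptolide the members kept a median of 67.9% of their 0 h level in DMSO and 68.0% in MAPKi, and all genes kept 68.3% and 60.2%.

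The 4 members with the largest called losses were the same under both pretreatments: CENPC, MIS12, FAM83D and AURKA. AURKA lay nearer to the other members than CENPC and MIS12 did. CENPC had 247.8, 243.0 and 206.7 normalised counts at 0 h in DMSO, 83.7, 90.2 and 68.7 at 3 h, and 22.9, 37.8 and 17.6 at 5 h. In MAPKi it had 249.3, 299.1 and 276.7 at 0 h, 89.7, 84.4 and 60.9 at 3 h, and 38.6, 30.6 and 29.6 at 5 h, so that in both pretreatments every 5 h library was below every 3 h library, and these below every 0 h library. The log2 change was -2.34 ± 0.15 in DMSO and -2.42 ± 0.15 in MAPKi, and 11.2% ± 4.50 (SD, n = 3) of the transcript remained at 5 h in DMSO. MIS12, which names the complex that joins CENPC to NDC80 (chr17:5486285-5490814, plus strand), had 211.7, 215.5 and 205.5 normalised counts at 0 h in DMSO and 53.9, 44.9 and 48.3 at 5 h. It fell by 1.85 ± 0.14 in DMSO and 1.78 ± 0.16 in MAPKi, with exons of DERL2 on the other strand. FAM83D fell by 1.88 ± 0.21 and 1.36 ± 0.23, and AURKA (chr20:56369389-56392337, minus strand) by 1.03 ± 0.10 and 1.30 ± 0.10. These 4 were lower and passed the test in both pretreatments also with TMM, total counts or mitochondrial rRNA as the scale.

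Losses of the other members with set roles were smaller. In DMSO and MAPKi, TTK fell by 0.89 and 0.85, CCNA2 by 0.88 and 0.62, CENPE by 0.83 and 0.66, AURKB by 0.70 and 1.05, CDK1 by 0.70 and 0.78, CENPF by 0.67 and 0.56, NDC80 by 0.64 and 1.06, BUB1 by 0.62 and 0.31, and KNL1 by 0.46 and 0.23. PLK1, CDC20, CCNB1 and PTTG1 fell by 0.38, 0.37, 0.24 and 0.22 in DMSO, less than the median of all genes, and the sign of all 4 turned with TMM. In MAPKi they fell by 0.70, 0.45, 0.32 and 0.44, of which PLK1 was beyond the median of all genes, and with TMM the sign turned for the other 3. CENPA was at -0.36 ± 0.34 and -0.07 ± 0.39 and passed in neither. The smallest values were those of CENPH and ZWINT in DMSO (-0.01 and 0.02) and of ANLN and CCNB2 in MAPKi (0.03 and 0.05). BIRC5, which encodes the passenger protein survivin, had 1083, 1415 and 1244 normalised counts at 0 h in MAPKi and 1445, 1432 and 1397 at 5 h, which overlap, a rise of 0.15 ± 0.07 (adjusted p = 0.0484 by edgeR) that became -0.02 with mitochondrial rRNA as the scale.

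The change under triptolide was also compared between pretreatments. None of the 48 members passed the edgeR test of that difference (0.431% of all genes were higher and 3.91% lower). At an unadjusted p under 0.05, 3 members were higher (MAD2L1, BIRC5 and CCNB2) and 3 lower (ZW10, NDC80 and AURKB). Of all 14853 genes, 389 were higher and 2194 lower at that threshold. DESeq2 called BIRC5 higher. The member median of the difference was 0.09, against -0.15 for all genes, and the smallest values were those of CENPO (-0.03) and TTK (0.04). The calls depended on the scale: with TMM 8 members were higher and none lower (1.23% and 1.25% of all genes), and with mitochondrial rRNA 7 were lower and none higher (19.3% and 0.383% of all genes).

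Cycloheximide added to triptolide asked which part of the loss required ongoing translation. In DMSO, 27 of 48 members were higher in TCHX than in T and none lower (28.6% and 0.451% of all genes), with a member median of 0.25 against 0.23 for all genes. In MAPKi, 43 were higher and none lower (41.7% and 0.505% of all genes), with a member median of 0.59 against 0.34 for all genes. With TMM the member calls were 18 higher and 2 lower (BIRC5 and SPC24) in DMSO (15.8% and 5.58% of all genes), and 24 higher and 1 lower (PMF1) in MAPKi (19.5% and 13.5%). In MAPKi they were 31 higher and 1 lower with total counts (25.3% and 5.04% of all genes). On 62 genes stable in either triptolide arm they were 30 higher and 1 lower (25.1% and 4.59%), with PMF1 the lower one in both. The comparison shares the T libraries with the loss given above, so that a low T library raises one and lowers the other.

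CENPC, FAM83D, MIS12 and AURKA, the members lost fastest, also had the largest gains, and both measures share the T libraries. CENPC in DMSO had 127.7, 127.9 and 128.5 normalised counts in TCHX at 5 h, where the T libraries had 22.9, 37.8 and 17.6. In MAPKi it had 190.2, 199.0 and 229.3 in TCHX against 38.6, 30.6 and 29.6 in T. The arms lay apart in both pretreatments, and the log2 difference over 3 and 5 h was 1.80 ± 0.13 in DMSO and 1.88 ± 0.13 in MAPKi. FAM83D was higher by 1.55 ± 0.18 and 2.02 ± 0.19, MIS12 by 1.49 ± 0.12 and 1.48 ± 0.13, and AURKA by 0.77 ± 0.08 and 1.28 ± 0.09. At 5 h of TCHX, CENPC stood at 51.7% ± 0.155 of its 0 h level in DMSO and 85.2% ± 8.50 in MAPKi, and MIS12 at 77.9% ± 1.69 and 95.2% ± 14.0 (SD, n = 3). At the other end, ANLN and CENPH were at 0.0036 and -0.01 in DMSO, and PMF1 and CENPM at -0.08 and 0.14 in MAPKi, where MAD2L1, ANLN and RACGAP1 were the other members not called.

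By role, all 8 kinase and passenger genes were higher in MAPKi, with a median of 1.04, and 7 of 8 in DMSO, with a median of 0.54. All 6 cyclin and anaphase genes were higher in MAPKi (median 0.64) and 3 in DMSO (median 0.23). Of 12 centromere genes, 11 were higher in MAPKi and 7 in DMSO. Of 9 outer kinetochore genes, 8 and 4 were higher, of 6 checkpoint genes, 5 and 4, and of 7 spindle and cytokinesis genes, 5 and 2. Over all genes 41.7% were higher in MAPKi (median 0.34) and 28.6% in DMSO (median 0.23). In DMSO the share of spindle and cytokinesis genes (28.6%) and the cyclin and anaphase median (0.23) were thus no higher than those of all genes. Among members with set roles, the log2 differences in DMSO and MAPKi were 0.74 and 1.15 for AURKB, 0.71 and 0.98 for TTK, 0.51 and 0.81 for CENPE, 0.49 and 0.77 for PLK1, 0.39 and 0.62 for CENPF, 0.32 and 0.52 for BUB1, 0.27 and 0.60 for CDC20, and 0.21 and 0.44 for KNL1. PTTG1 was at 0.18 and 0.34 and CENPA at 0.19 and 0.70, with only the MAPKi value called in each.

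At 5 h of TCHX in MAPKi, 43 of the 48 members stood above their own 0 h level (89.6%), as did 31.9% of all genes, and the member median was 116% against 89.9%. The other 5 were ZW10, MIS12, NSL1, PMF1 and CENPC. In DMSO at 5 h, none of the 48 stood above it (18.5% of all genes did), and the medians were 84.0% and 83.1%. BUB1 stood at 143% ± 8.76 in MAPKi and 86.3% ± 15.2 in DMSO, CENPE at 134% ± 8.06 and 75.5% ± 6.26, and CCNB1 at 123% ± 3.19 and 96.4% ± 7.79 (SD, n = 3). These shares were not tested and were not computed on another scale. They rest on the 36 genes, which were chosen in the T arm alone, and only 1 gene was stable in both triptolide arms. Over all genes the median log2 difference between TCHX and T in MAPKi was 0.34 on that scale. It was 0.11 on the 62 genes stable in either triptolide arm and -0.03 with TMM.

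**Figure D3:**
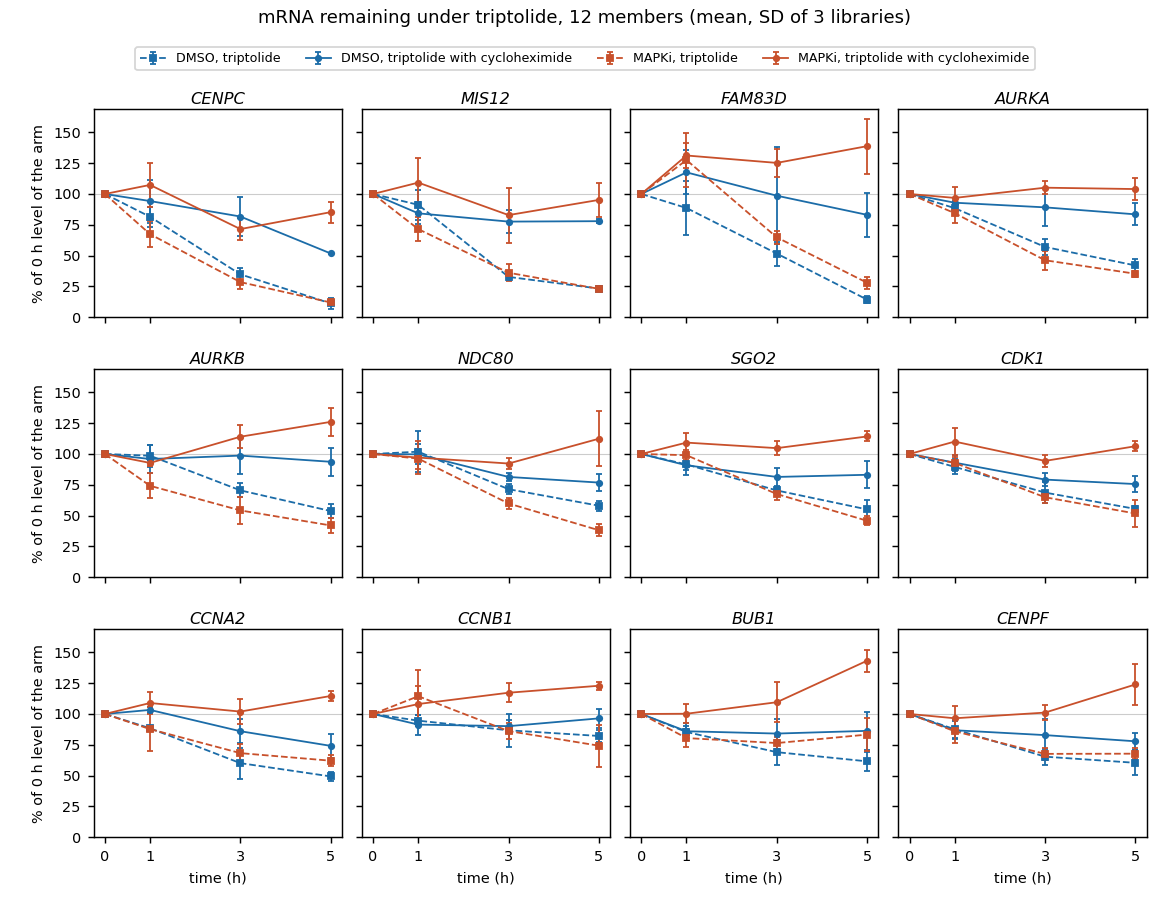
Level of 12 members in percent of the 0 h level of the same arm, against time after triptolide, as mean and SD of 3 libraries, for DMSO (blue) and MAPKi (orange), with triptolide alone (dashed lines, squares) and with cycloheximide (full lines, circles). CENPC falls to 11.2% at 5 h with triptolide alone in DMSO, and with cycloheximide the orange lines of most panels end above 100%. Levels are scaled on the 36 genes chosen in the triptolide arm, and no other scale is shown.

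The test of the difference itself, the effect of cycloheximide under triptolide in MAPKi minus that in DMSO, called 14 of 48 members higher and none lower (6.87% and 0.310% of all genes). They were SGO2, NDC80, CENPW, CCNB1, AURKA, SGO1, CCNB2, DSN1, SPC24, AURKB, HMMR, CDK1, CCNA2 and ECT2. The member median was 0.28, against 0.13 for all genes. SGO2 (chr2:200510008-200584096, plus strand), whose exons overlap KCTD18 on the other strand, had 611.6, 594.2 and 471.9 normalised counts in T and 1031, 811.6 and 839.1 in TCHX at 5 h in DMSO. In MAPKi at 5 h it had 280.2, 301.1 and 329.1 in T and 902.7, 856.3 and 844.9 in TCHX, so that TCHX was above T in both and the MAPKi gap was wider. Its difference between pretreatments was 0.69 ± 0.10 (adjusted p = 4.40e-07 by edgeR). NDC80 had 303.2, 336.0 and 294.9 in T and 499.0, 417.5 and 472.2 in TCHX at 5 h in DMSO, and 154.4, 200.7 and 186.2 in T and 471.4, 458.4 and 643.7 in TCHX in MAPKi. The gap of NDC80 was again wider in MAPKi, by 0.60 ± 0.12. CENPW, a histone-fold protein of the centromere, followed at 0.55 ± 0.15 and CCNB1 at 0.52 ± 0.11. MIS12 (-0.01 ± 0.19) and CENPC (0.07 ± 0.18), which gained most in both pretreatments together with FAM83D (0.47 ± 0.26), were not called. With TMM, 4 of the 14 were called (SGO2, NDC80, AURKA and CCNB1), where 2.81% of all genes were higher and 0.870% lower. Without replicate 1, 2 or 3 in every group, 6, 5 and 7 members were called. The shares of all genes in those fits are not reported here.

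**Figure D4:**
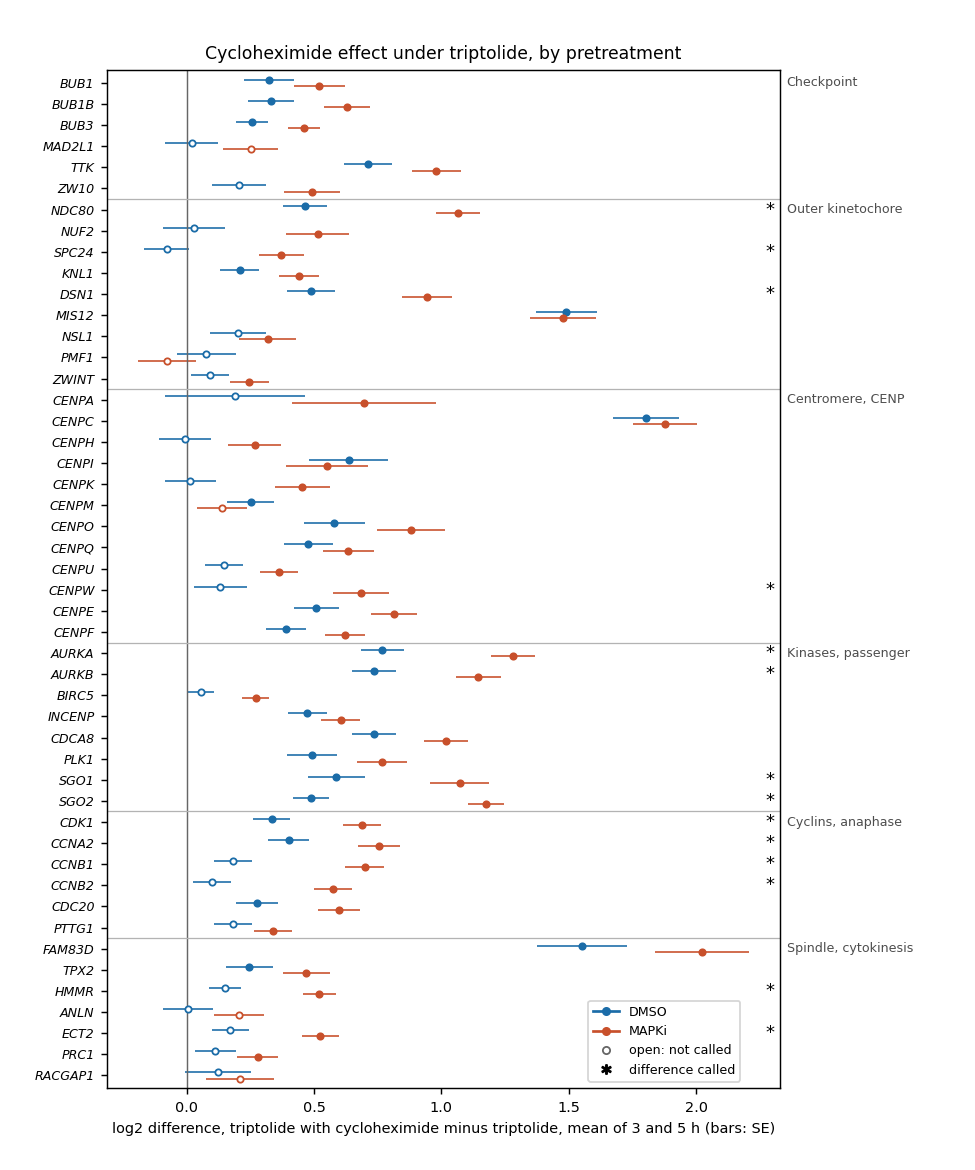
Log2 difference between triptolide with cycloheximide and triptolide alone, mean of 3 and 5 h with SE, for each tested member in DMSO (blue) and MAPKi (orange); filled points passed the test, and a star marks the 14 members whose difference between pretreatments passed. Most orange points lie right of the blue ones, while CENPC (1.80 and 1.88) and MIS12 (1.49 and 1.48) coincide.

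The same libraries were also expressed as the translation-dependent decay index, the gap between TCHX and T divided by the vehicle level at 0 h, averaged over 3 and 5 h and formed for each replicate number, for which the labels name no shared culture. It was computed for 48 members and 11422 genes with at least 10 normalised counts at 0 h, and was not tested. It was computed only on the scale of the 36 genes. The log2 difference between TCHX and T in MAPKi depended on that scale, with a median over all genes of 0.34. That median was 0.11 on the 62 genes stable in either triptolide arm and -0.03 with TMM. Over the members the index had a median of 0.147 ± 0.0419 for DMSO and 0.368 ± 0.0648 for MAPKi (SD, n = 3), and over all genes of 0.122 ± 0.0343 and 0.183 ± 0.0115. The index was larger in MAPKi for 44 of 48 members (91.7%) and for 68.6% of all genes, the exceptions being MIS12, PMF1, CENPI and CENPM. In 30 members (62.5%) the 3 MAPKi values were all above the 3 DMSO values, as in 19.5% of all genes. AURKB had 0.325, 0.396 and 0.468 in DMSO and 0.788, 0.666 and 0.641 in MAPKi, with no overlap, and CDCA8, which encodes borealin of the same complex, had means of 0.341 and 0.645. FAM83D had the highest mean of the members in MAPKi (0.960 ± 0.265, against 0.442 ± 0.128 in DMSO), and CENPC had 0.488 ± 0.0796 in DMSO and 0.511 ± 0.106 in MAPKi, where the values overlapped. By role, the MAPKi medians were 0.534 ± 0.0485 for kinases and passenger genes, 0.412 ± 0.0183 for cyclins and anaphase genes, 0.372 ± 0.0931 for centromere genes, 0.356 ± 0.0550 for checkpoint genes, 0.299 ± 0.0346 for the spindle and cytokinesis and 0.243 ± 0.0412 for the outer kinetochore. The steps from cyclins to centromere genes and from there to checkpoint genes were smaller than the SD of the centromere median.

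Cycloheximide without triptolide was compared with vehicle at 3 and 5 h, with transcription running. In DMSO, 7 of 48 members were higher and 10 lower (17.3% and 14.9% of all genes), with a member median of -0.08. CENPC had 81.1, 80.9 and 90.4 CPM at 5 h in cycloheximide and 33.0, 31.8 and 31.2 CPM in vehicle. The arms of CENPC lay far apart, and over 3 and 5 h it rose by 1.12 ± 0.10, followed by MIS12 (0.74 ± 0.11), FAM83D (0.43 ± 0.17) and SGO2 (0.41 ± 0.06). CCNA2 had 64.2, 57.1 and 69.4 CPM at 3 h in cycloheximide and 97.6, 89.6 and 92.7 CPM in vehicle. It fell by 0.57 ± 0.07 over both times, SPC24 by 0.72 ± 0.09, CENPI, a centromere complex subunit, by 0.52 ± 0.15, and CDC20 by 0.45 ± 0.07, while PLK1 and PTTG1 fell by 0.30 and 0.24. The smallest values were 0.0077 for NUF2 and 0.01 for CENPO.

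In MAPKi, 17 members were higher with cycloheximide and 2 lower (15.9% and 14.0% of all genes), with a member median of 0.15. Without replicate 1 in every group, 9 were higher and 2 lower (11.4% and 8.51% of all genes). CENPC rose by 0.62 ± 0.10, SGO1 by 0.55 ± 0.11, HMMR by 0.52 ± 0.07 and the checkpoint gene ZW10 by 0.51 ± 0.11. SPC24 and the checkpoint protein gene BUB3 were the 2 that fell, by 0.29 ± 0.09 and 0.23 ± 0.05. The smallest values were 0.0041 for PMF1 and 0.0064 for ANLN. The vehicle libraries in these comparisons are the ones in which 6 members were lower in MAPKi at 5 h than at 0 h, and INCENP, with 134.8, 123.6 and 137.0 CPM in cycloheximide and 95.4, 100.2 and 97.9 CPM in vehicle at 5 h, is one of them.

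The effect of cycloheximide differed between pretreatments for 15 members, 14 of them higher in MAPKi and CENPC lower (5.02% of all genes were higher and 5.96% lower). The member median of this difference was 0.21 and that of all genes -0.02. CDC20 at 5 h had 265.2, 234.2 and 220.4 CPM with cycloheximide and 393.2, 381.6 and 280.3 CPM with vehicle in DMSO, and 158.4, 152.7 and 184.3 CPM against 157.8, 141.1 and 131.5 CPM in MAPKi. In DMSO all vehicle libraries were above the cycloheximide ones, and in MAPKi the arms overlapped; the difference between pretreatments was 0.59 ± 0.10 (adjusted p = 2.13e-05 by edgeR). CENPI was at 0.67 ± 0.21, SGO1 at 0.53 ± 0.15, CCNA2 at 0.50 ± 0.11 and CENPC at -0.50 ± 0.15. The other 10 were DSN1, MAD2L1, HMMR, SPC24, PLK1, CENPU, NDC80, BIRC5, INCENP and CENPF, from 0.49 down to 0.27. RACGAP1 (-0.04) and PRC1 (0.06) were the smallest. With 1 replicate number left out in every group, 5 to 8 members were called. CENPC, the lower one, was not called in any of these 3 fits (-0.52, -0.48 and -0.48), nor were SGO1, MAD2L1, NDC80 and SPC24, while CDC20, HMMR and BIRC5 were called in all 3.

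**Figure D5:**
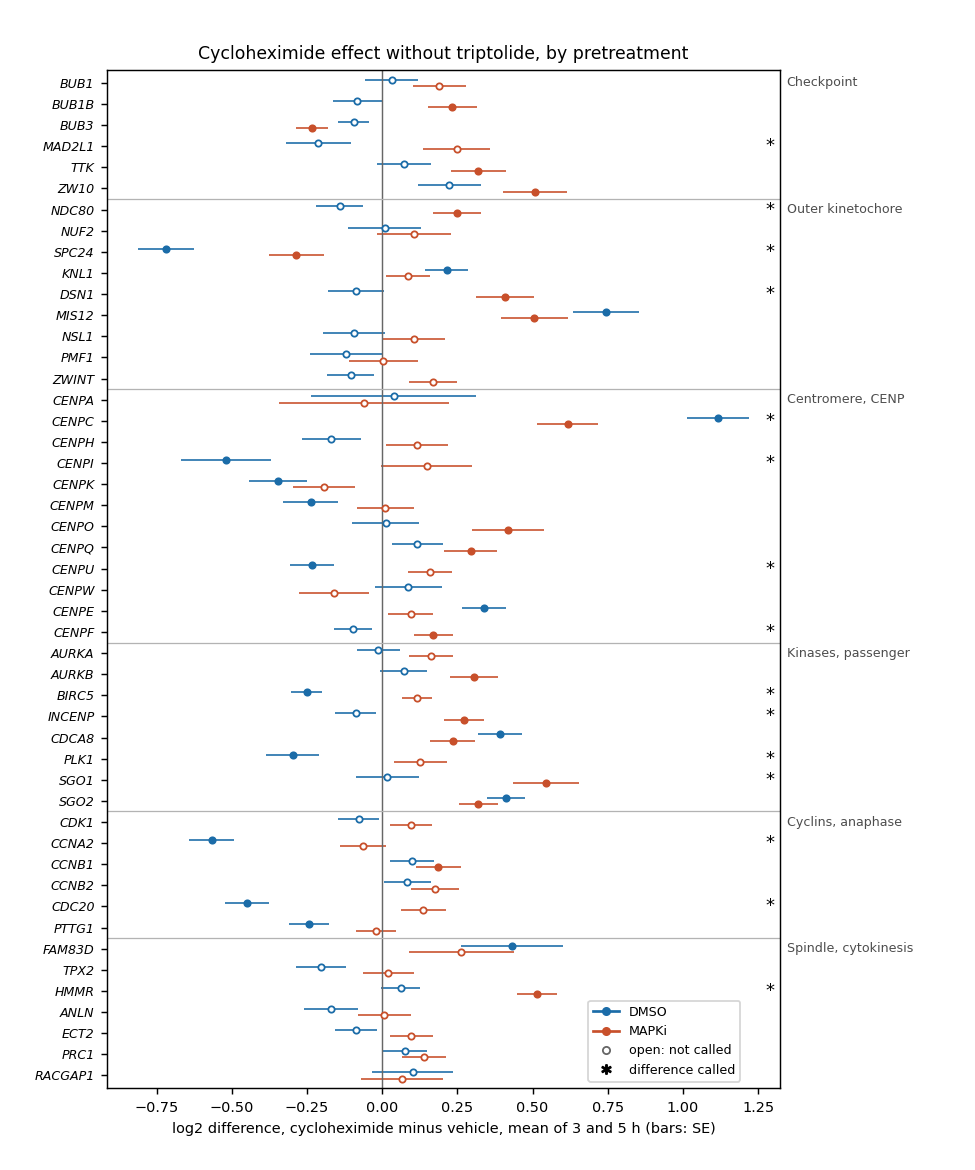
Log2 difference between cycloheximide and vehicle, mean of 3 and 5 h with SE, for each tested member in DMSO (blue) and MAPKi (orange); filled points passed the test and a star marks the 15 members whose difference between pretreatments passed. CENPC lies farthest right in both (1.12 and 0.62), and CCNA2, CDC20 and SPC24 lie left of 0 in DMSO.

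Coding sequences of the members were rich in some codons, as a description of annotation and not of the libraries. The median share of GAA was 5.20% of codons in the 52 members and 2.83% in 11925 tested genes, and that of AAA 4.33% and 2.35%. For GAT the medians were 2.78% and 2.12% and for AAT 2.08% and 1.53%. GAG, the other glutamate codon, was close to the rest (3.63% and 3.76%), and GAC, the other aspartate codon, was lower (1.75% and 2.39%). For GAA, 42 of the 52 members lay above the median of all genes.

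The 4 untested members had too few counts for any comparison. CENPN had 25 counts over all 96 libraries, CENPP 46, ESPL1, which encodes separase, 72, and SPC25, the partner of SPC24, 201, of which 51 were in a single MAPKi library at 5 h of triptolide. A separate entry named SPC25_1 held 324 counts, 65 of them in a single library. The highest level of any of the 4 members in a library was 6.50 CPM. CENPN shares exon positions with CENPN-AS1 and CMC2, and CENPP with IPPK, while SPC25 and ESPL1 have no such overlap in the annotation used. A low count in 3′ tags limits what was counted for the entry and does not show that the gene is silent.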

How the data were processed

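A375 cells were profiled by QuantSeq 3′ tag sequencing in 96 libraries. Per the labels and the study's methods, the authors trimmed reads with fastp 0.20.1, aligned them to GRCh38.p13 with HISAT2 2.2.1 and counted reads on exons with htseq-count 0.13.5; the strand setting is not given in the sources used here. The deposited values are raw counts per gene, from 2381351 to 12520154 per library. No ERCC spike-in entry was in the table, so no external scale was used.

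After a filter on low counts, edgeR 4.0.16 (R 4.3.3) was run as a quasi-likelihood test in which each of the 32 groups had its own mean, over the 96 libraries together, with Benjamini-Hochberg adjustment over all genes tested and a threshold of 0.05. Vehicle and cycloheximide arms were scaled by TMM. Triptolide arms were scaled on 36 genes above 0.2 CPM whose CPM was at least 1.1 times the vehicle 0 h level at 3 and 5 h of triptolide, and whose vehicle 0 h level was above 10% of that later level, in all replicates of both pretreatments. SE is the log2 difference divided by the square root of F. The code was tested on simulated data for the MAPKi comparison of vehicle libraries and for the difference under triptolide. In that simulation the difference under triptolide was scaled on total counts, so scaling on the 36 genes was not tested. Replicate numbers were checked for pairing: the correlation of deviations of libraries sharing a number was as low as -0.310 (median 0.0172), so numbers were not taken to pair samples. Alternatives were DESeq2 1.42.0, other scalings, single times, no filter, a replicate block and leaving out each replicate.

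The members and lists were chosen with earlier results of these data known. Genes named were 16 members with set roles and, in each comparison, up to 4 with the largest called change in each direction and the 2 with the smallest change; others named where counts were 5 or fewer were chosen after their values were seen. Not every overlap between annotated genes is reported here.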

Additional observations from a re-analysis of the deposited data

Results flagged for a closer look

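The effect of cycloheximide without triptolide differed between pretreatments for 15 members, by the edgeR test of the difference itself (MAPKi minus DMSO, log2, Benjamini-Hochberg adjusted over all genes). It was higher in MAPKi by 0.67 ± 0.21 (SE) for CENPI, 0.59 ± 0.10 for CDC20, 0.53 ± 0.15 for SGO1, 0.50 ± 0.11 for CCNA2 and 0.49 ± 0.13 for DSN1. For MAD2L1, HMMR, SPC24 and PLK1 it was higher by 0.46, 0.45, 0.43 and 0.42, and for NDC80, CENPU, BIRC5, INCENP and CENPF by 0.39, 0.39, 0.37, 0.36 and 0.27. For CENPC it was -0.50 ± 0.15. Adjusted p ranged from 2.13e-05 (CDC20) to 0.0418 (MAD2L1).

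The effect of cycloheximide under triptolide differed for 14 members by the same test, all higher in MAPKi. The difference was 0.69 ± 0.10 for SGO2, 0.60 ± 0.12 for NDC80, 0.55 ± 0.15 for CENPW, 0.52 ± 0.11 for CCNB1 and 0.51 ± 0.12 for AURKA. For SGO1, CCNB2, SPC24 and DSN1 it was 0.48, 0.48, 0.45 and 0.45, and for AURKB, HMMR, CDK1, CCNA2 and ECT2 it was 0.41, 0.37, 0.35, 0.35 and 0.35. Adjusted p ranged from 4.40e-07 (SGO2) to 0.0475 (SGO1).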

How the results depend on the processing

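The counts of members called in the MAPKi comparison of vehicle libraries stayed within 1.5 times of 47 under every alternative run for it. At single times 3 called members went against the sign of their mean over times. CENPF was at 0.050 at 0 h and 0.0049 at 1 h, INCENP at 0.087 and 0.12, and PMF1 at -0.16 at 5 h. The drift of vehicle libraries in DMSO gave 1 call (BIRC5) in place of 0 with the DESeq2 test, with DESeq2 size factors and with a replicate block, and its member median ranged from -0.0075 to 0.068 with 1 replicate number left out. Leaving out 1 replicate number gave 2 to 4 calls for the drift in MAPKi, 11 to 15 for cycloheximide in MAPKi, 5 to 8 for its difference between pretreatments, 0 to 1 for the difference in loss (AURKB without replicate 3) and 5 to 7 for the difference under triptolide; the cause was not tested.

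At 1 h alone, 0 members were called for cycloheximide in DMSO, in MAPKi or in their difference, 0 for loss in DMSO, 1 for loss in MAPKi (CENPC), and 0 for cycloheximide under triptolide in DMSO, in MAPKi or in their difference. Of the 48 members, called or not, the sign at 1 h turned for 27 and 19 for cycloheximide in DMSO and MAPKi, 23 for its difference, 10 and 10 for loss, 17 and 8 under triptolide and 7 for that difference. Among called members named by the rule, the signs that turned at 1 h were, for cycloheximide in DMSO, PLK1 0.11, CDC20 0.092, PTTG1 0.059, CENPI 0.13, CENPE -0.23, KNL1 -0.059, FAM83D -0.082 and SGO2 -0.012, and in MAPKi, AURKB -0.024, CENPF -0.064 and SPC24 0.024. For the difference in that effect they were PLK1 -0.29, CDC20 -0.21, CENPF -0.015, CENPI -0.26 and CENPC 0.055. For loss they were PLK1 0.10, TTK 0.055 and NDC80 0.028 in DMSO, and CCNB1 0.20, KNL1 0.058 and FAM83D 0.25 in MAPKi. Under triptolide they were PLK1 -0.056, BUB1 -0.047, TTK -0.12, CDC20 -0.0069 and MIS12 -0.11 in DMSO, PTTG1 -0.0077 and NDC80 -0.0055 in MAPKi, and NDC80 -0.14 for the difference. At 5 h alone the median of cycloheximide in DMSO was 0.0025 and the difference in loss gave 1 call (NDC80).

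The scale moved the triptolide results most often. With TMM, loss in DMSO gave 20 calls, the difference in loss 8, cycloheximide under triptolide in MAPKi 25 (24 higher and 1 lower) and its difference 4. With TMM the sign of loss turned for 22 members in DMSO (14 of them called) and 25 in MAPKi (17 called). Among called members named by the rule it turned in DMSO for CCNB1 (0.18), PLK1 (0.039), CDC20 (0.055) and PTTG1 (0.20), and in MAPKi for the median (0.14), CCNB1 (0.32), CCNA2 (0.020), BUB1 (0.33), CDC20 (0.21), PTTG1 (0.22), CENPF (0.093) and KNL1 (0.41). Cycloheximide under triptolide turned for 20 members in DMSO (1 called) and 11 in MAPKi (7 called), among those named for KNL1 in DMSO (-0.0018) and for PTTG1 in MAPKi (-0.027). With total counts, loss in DMSO gave 23 calls, the difference in loss 1 and the difference under triptolide 7, and loss turned for 10 members in DMSO and 14 in MAPKi, among the named called ones for CCNB1 (0.046) and PTTG1 (0.068) in DMSO and CCNB1 (0.055), BUB1 (0.062) and KNL1 (0.15) in MAPKi. With mitochondrial rRNA these counts were 24, 7 and 7, loss of BIRC5 in MAPKi was -0.016, and the median difference in loss was -0.20. With the 62 genes stable in either triptolide arm, the difference in loss gave 1 call and the difference under triptolide 7. The difference in loss also gave 1 call with the DESeq2 test and 1 with vehicle at 0 h as the initial level, and the difference under triptolide gave 8 without a filter.

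The labels name nothing shared by samples with the same replicate number, although each number has its own prefix in the column names. Of same-number correlations 17.6% were over 0.1, and 63 of 96 libraries correlated best with their own number, where equal shares among 3 numbers would give 32, a hint from the data that the numbers may mark something shared. With the replicate block, calls were 47 for MAPKi, 1 and 7 for the drift in DMSO and MAPKi, 18 and 19 for cycloheximide, 16 for its difference, 39 and 35 for loss, 0 for its difference, 29 and 44 for cycloheximide under triptolide and 16 for its difference. Depth limits the 4 members near 0, and intervals between replicates rest on 3 libraries a group.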
